A study of Mus musculus with 50 samples.

Results

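The genes described here were read out by RNA sequencing in mouse embryos given Duxbl mRNA. They are named as nuclear subunits of respiratory complex I or as Ndufaf assembly factors. They were chosen by name alone, as the protein-coding rows whose symbol is Nduf followed by letters and a number, and there were 48 of them among 35750 genes, 19237 of which were protein-coding. Of the 48, 40 were counted as subunits and 8 as assembly factors. By their place in the complex, 10 subunits belong to the NADH arm, 6 to the ubiquinone arm and 21 to the membrane arm, while Ndufa4, Ndufa4l2 and Ndufb11b were put in no arm. Ndufa4 has since been assigned to cytochrome c oxidase, and Ndufa4l2 is its relative. Both were kept by name and are counted among the 40 subunits.

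The study is titled for the role of DUXBL, a double homeobox transcription factor, in the exit from totipotency. All embryos were wild-type C57BL6/J zygotes from mated, superovulated females 3 to 12 weeks old, kept in KSOM medium. Duxbl embryos received 200 ng/µl of an mRNA for V5-tagged Duxbl joined through a 2A peptide to nuclear mCherry, mCherry embryos received 200 ng/µl of an mRNA for nuclear mCherry alone, and uninjected embryos received none. Tubes of 5 embryos were collected 28 to 30 h after hCG, the hormone that triggers ovulation (late 1-cell, written late 1C), after 32 h (early 2-cell, early 2C) or after 48 h (late 2-cell, late 2C). Duxbl embryos gave 4, 5 and 5 libraries at the 3 stages, and mCherry and uninjected embryos gave 6 each at every stage. Replicates are named by the number in their label, which is not always their place in a list of values. The 5 Duxbl libraries of late 2C are numbered 1, 3, 4, 6 and 7, and their values are listed in that order. The labels do not say which tubes came from separate matings, so p-values measure the spread between tubes.

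Complex I is the entry point of electrons into the respiratory chain of the inner mitochondrial membrane. Its NADH arm oxidises NADH, its ubiquinone arm passes the electrons to ubiquinone, and its membrane arm pumps protons. A set of core subunits, found also in bacteria, carries out the reaction, and the many supernumerary subunits surround them. Assembly factors help to build or modify the complex and are not part of the finished enzyme. Early mouse embryos inherit their mitochondria and much of their mRNA from the oocyte, and transcription from the embryo's own genome begins at the 1-cell stage and is strong by the late 2-cell stage.

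Deposited totals were 12.04 to 26.96 M per library (M is the prefix mega). The injected sequence is read on the Duxbl1 row, which stood at 1410 to 4799 CPM (the deposited value per M of the scaled library size) over the 14 Duxbl libraries and at no more than 634.8 CPM in any other. The embryo's own Duxbl1 transcripts count on the same row. The third replicate of uninjected late 1C stood apart for the complex I genes: it was the highest of its 6 libraries for 32 of the 48, and its summed level of 2626 CPM compared with 1750 to 2098 CPM in the other 5. The 7 complex I subunits encoded in mitochondrial DNA were not analysed here.

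Promoter sequences are shown for the 3 subunits that mark the group by name, Ndufs8, Ndufc1 and Ndufa7, which also had the deepest deficits in Duxbl embryos, and for Ndufa10, the subunit with the largest excess. They are RefSeq promoters of the GRCm38.p6 build, from 250 bases before to 50 bases after the start of the gene, written 5′ to 3′ on the gene's own strand. Capitals mark a match, on either strand, to one of the 5 motifs searched: GCATGCGC (NRF1 core), CCGGAAG (ETS factors such as GABPA), AAGATGGCG (YY1) and TGATTNAAT (a DUX-like homeobox core). The fifth was TATAAA, the box found in some core promoters. The windows are chr19:3912725-3913024 on the minus strand for Ndufs8, chr3:51408906-51409205 on the minus strand for Ndufc1, chr17:33824322-33824621 on the plus strand for Ndufa7 and chr1:92473709-92474008 on the minus strand for Ndufa10. Ndufa7 has a second RefSeq window, chr17:33824395-33824694 on the plus strand, which is not shown.
Ndufs8: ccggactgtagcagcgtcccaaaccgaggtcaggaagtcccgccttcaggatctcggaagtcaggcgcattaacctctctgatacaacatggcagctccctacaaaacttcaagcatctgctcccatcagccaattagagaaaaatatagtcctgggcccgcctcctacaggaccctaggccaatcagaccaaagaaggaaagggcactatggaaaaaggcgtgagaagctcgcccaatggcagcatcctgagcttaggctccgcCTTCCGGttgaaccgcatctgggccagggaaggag
Ndufc1: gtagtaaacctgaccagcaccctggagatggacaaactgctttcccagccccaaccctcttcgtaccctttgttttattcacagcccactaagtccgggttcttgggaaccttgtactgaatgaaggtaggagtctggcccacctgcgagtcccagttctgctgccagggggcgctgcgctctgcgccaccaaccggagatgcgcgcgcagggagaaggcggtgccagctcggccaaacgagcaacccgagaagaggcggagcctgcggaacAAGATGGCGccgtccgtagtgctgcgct
Ndufa7: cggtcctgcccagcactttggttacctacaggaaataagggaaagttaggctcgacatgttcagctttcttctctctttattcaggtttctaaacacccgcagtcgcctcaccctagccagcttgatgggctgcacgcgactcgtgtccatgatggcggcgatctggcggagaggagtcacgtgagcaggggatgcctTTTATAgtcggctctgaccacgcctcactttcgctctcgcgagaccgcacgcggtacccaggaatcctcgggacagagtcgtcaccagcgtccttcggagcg
Ndufa10: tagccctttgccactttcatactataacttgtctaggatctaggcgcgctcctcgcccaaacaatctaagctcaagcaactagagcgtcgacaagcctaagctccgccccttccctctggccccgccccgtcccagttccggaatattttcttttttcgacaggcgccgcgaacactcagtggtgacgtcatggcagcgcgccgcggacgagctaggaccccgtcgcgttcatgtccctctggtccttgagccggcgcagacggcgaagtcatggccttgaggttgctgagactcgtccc

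Ndufs8 held the ETS motif, Ndufc1 the YY1 motif and Ndufa7 the TATA motif, while the Ndufa10 window held none of the 5. The Ndufa7 match lies on the opposite strand, reading TTTATA on the gene's own. It stands at -52 bases from the start of the shown window's gene model and at -125 from that of the second window. A RefSeq window was matched for 41 of the 48 genes. The YY1 motif was in 6 of the 41 (14.6%), against 1.64% of the 27025 genes with a window. The NRF1 motif was in 5 (12.2%) against 3.05%, the ETS motif in 6 (14.6%) against 9.93%, and the TATA motif in 4 (9.76%) against 15.7%. The DUX-like motif was in 0 of 41, against 0.84% of all genes. Among the genes that held the YY1 motif, Ndufa9, Ndufaf8, Ndufc1 and Ndufs7 were called lower in late 2C Duxbl embryos and Ndufs4 and Ndufs6 were not called. Of all 41 genes with a window, 20 were called lower, 6 higher and 15 not called. The split was 2 lower, 1 higher and 2 not called for the NRF1 motif. It was 3 lower and 3 not called for the ETS motif, and 3 lower and 1 not called for the TATA motif. No link between a motif and a call was tested. A match of letters is a description and not a site.

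Uninjected embryos give the normal course of these genes. Of the 48, 26 rose and 12 fell at late 2C relative to early 2C, which is 38 called genes against a background of 56.9% of the 28808 genes tested (30.3% higher and 26.6% lower). All fold changes are log2 on the CPM + 1 scale, from limma fitted across all genes, and a gene was called at a Benjamini-Hochberg adjusted p under 0.05. The median log2 fold was 0.57 over the complex I genes, against 0.02 over all genes tested. Values are relative to the whole library, in which less RNA of a gene per embryo and more RNA of other genes cannot be told apart, nor can fewer cells of a type and less RNA per cell. Without any rescaling of the deposited values the split was 21 higher and 17 lower, where 8190 of 28808 genes were higher and 8240 lower. By contrast only Ndufs8 was called at early 2C relative to late 1C, at -1.004 ± 0.25 (log2 fold ± SE) and an adjusted p of 0.0114 (limma), where 2.93% of all genes were called (1.12% higher and 1.81% lower). With only the compared groups in the fit 7 members were lower, where 1081 of 18323 genes were lower and 519 higher. With a replicate block 3 members were lower, where 706 of 28808 genes were lower and 369 higher. With voom weights 2 were lower, where 619 of 28808 genes were lower and 352 higher. In the main fit, the Ndufs8 call also stood without the third replicate of late 1C. It was lost without the fifth replicate of early 2C, and was joined by a second gene without the seventh. The fold was negative for 43 of the 48 genes at this step, with a median of -0.257, against 0.006 over all genes tested. The signs were not counted over all genes, nor without the third replicate of late 1C.

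The normal rise was led by the assembly factor Ndufaf5, which had 35.0, 47.8 and 60.1 CPM (lowest, median and highest of 6) in uninjected embryos at late 2C, against 0.5785, 1.05 and 1.68 CPM at early 2C, a log2 fold of 4.60 ± 0.31 (adjusted p 1.92e-18, limma). Among the subunits, members of all 3 arms led it. Ndufc1, a small subunit of the membrane arm, had 38.7, 47.0 and 63.5 CPM in uninjected embryos at late 2C, against 0.434, 1.362 and 2.80 CPM at early 2C, a log2 fold of 4.44 ± 0.26 (adjusted p 2.67e-20, limma). Ndufs8, a core subunit of the ubiquinone arm that carries iron-sulphur clusters, had 132.5, 228 and 266 CPM at late 2C and 4.45, 13.5 and 21.1 CPM at early 2C, a log2 fold of 4.0 ± 0.25 (adjusted p 1.86e-19, limma). Ndufa7, a supernumerary subunit of the NADH arm, had 36.0, 59.1 and 93.0 CPM at late 2C and 2.80, 3.44 and 4.73 CPM at early 2C, a log2 fold of 3.69 ± 0.31 (adjusted p 3.6e-15, limma). In each of these 4 genes, every late 2C library lay above every early 2C library. Among the subunits, Ndufb10, Ndufv1 and Ndufa9 followed with log2 folds of 3.23, 2.92 and 2.67; Ndufb10 belongs to the membrane arm, Ndufv1 binds NADH and the flavin that accepts its electrons, and Ndufa9 sits in the ubiquinone arm. Ndufb10 had 45.1, 70.7 and 89.4 CPM in uninjected embryos at late 2C and 4.88, 6.20 and 9.62 CPM at early 2C.

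Ndufa10, a membrane-arm subunit related to nucleoside kinases, fell the most in the normal course, and the assembly factor Ndufaf4 fell by 1.80 on the log2 scale. Ndufa10 had 9.82, 16.6 and 40.1 CPM in uninjected embryos at late 2C and 82.8, 126 and 169 CPM at early 2C, a log2 fold of -2.74 ± 0.23 (adjusted p 5.49e-15, limma). Ndufa8 and Ndufs5, both membrane-arm subunits on the side of the intermembrane space, had 1.79, 3.78 and 14.85 CPM and 3.52, 5.29 and 6.94 CPM at late 2C, against 25.1, 28.2 and 37.5 CPM and 21.1, 24.15 and 35.6 CPM at early 2C. Their groups did not overlap, with log2 folds of -2.43 and -2.13. The remaining leading falls among subunits were Ndufa4l2 at -1.41, Ndufb5 at -1.35 and Ndufs4, a small subunit of the NADH arm whose loss in mice causes a Leigh-like disease, at -1.07. Reads of Ndufs5 may be shared with its pseudogene row Ndufs5-ps, which averaged 11.8 ± 5.37 CPM in uninjected embryos at late 2C, where Ndufs5 itself averaged 5.12 ± 1.35 CPM (SD, n = 6).

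The parts of the complex differed in their share of risers. In uninjected embryos 7 of 10 NADH-arm subunits rose and 1 fell (median log2 fold 1.49), 4 of 6 ubiquinone-arm subunits rose and 1 fell (1.53), and 10 of 21 membrane-arm subunits rose and 6 fell (0.435). Of the 7 core subunits 6 rose and none fell, the exception being Ndufs3 at a log2 fold of -0.53 (adjusted p 0.0673, limma). Ndufv2, one of the 6, lost its call without the fourth uninjected early 2C replicate (adjusted p 0.0649, limma). Ndufs3 was called lower in 4 alternatives: without rescaling (-0.705, adjusted p 0.0149), with a replicate block (adjusted p 0.0494), and without the third or sixth uninjected late 2C replicate (adjusted p 0.0356 and 0.0446). Over all 40 subunits 21 rose and 10 fell (median 0.51). Of the 8 assembly factors 5 rose and 2 fell (median 1.16). Among the 5, Ndufaf7 lost its call without rescaling (adjusted p 0.0679, limma). It also lost the call without the third or sixth uninjected late 2C replicate (adjusted p 0.0627 and 0.0594, limma). Over all genes tested 30.3% rose and 26.6% fell. No test compared these lists with one another.

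Injection of the mCherry mRNA alone moved no complex I gene past the threshold. mCherry against uninjected embryos gave 0 called members at each of the 3 stages, where 0% of all genes were called (limma). Before adjustment, p was under 0.05 for 0, 1 and 0 members at the 3 stages and for 564, 781 and 383 genes of the whole table. The count was also 0 with voom weights and without the third replicate of uninjected late 1C. The course in mCherry embryos gave 27 genes higher and 12 lower at late 2C relative to early 2C. Of all genes 57.2% were called (30.5% higher and 26.7% lower).

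Duxbl embryos did not differ detectably from mCherry embryos in these genes at the first 2 stages. At late 1C 0 of 48 were called, where 0.0193% of all genes were called (0.00481% higher and 0.0144% lower), and the log2 folds lay between -0.56 and 0.49. At early 2C 0 of 48 were called, where 0.42% of all genes were called (0.0283% higher and 0.392% lower), and the log2 folds lay between -0.41 and 0.43. At an unadjusted p under 0.05 there was 1 member at late 1C and 0 at early 2C, and with voom weights the called counts were also 0. Ndufs8 had 26.9, 18.5, 30.0 and 22.3 CPM in the 4 Duxbl libraries at late 1C, against 21.45, 24.7 and 26.4 CPM (lowest, median and highest of 6) in mCherry and 19.3, 24.3 and 35.5 CPM in uninjected libraries. At early 2C it had 16.7, 11.6, 10.3, 15.5 and 11.9 CPM in the 5 Duxbl libraries, against 7.34, 15.3 and 20.1 CPM in mCherry and 4.45, 13.5 and 21.1 CPM in uninjected libraries. The groups overlapped at both stages.

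At late 2C most complex I genes stood at other levels in Duxbl embryos than in mCherry embryos. Of the 47 genes tested, 25 were lower and 6 higher, 31 called in all against a background of 55.9% of 23052 genes (29.1% lower and 26.8% higher). The median log2 fold was -1.16 over the complex I genes and -0.05 over all genes tested. Of the 29 genes whose row overlaps no other gene, 16 were lower and 4 higher. The library kits do not mark strand, so for the other 19 the reads of overlapping genes cannot be told apart. When libraries were scaled by their totals alone, the median of all genes moved to -0.264 and the counts were 26 lower and 5 higher. Over all 23052 genes, 7510 were then lower and 4957 higher.

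**Figure D1:**
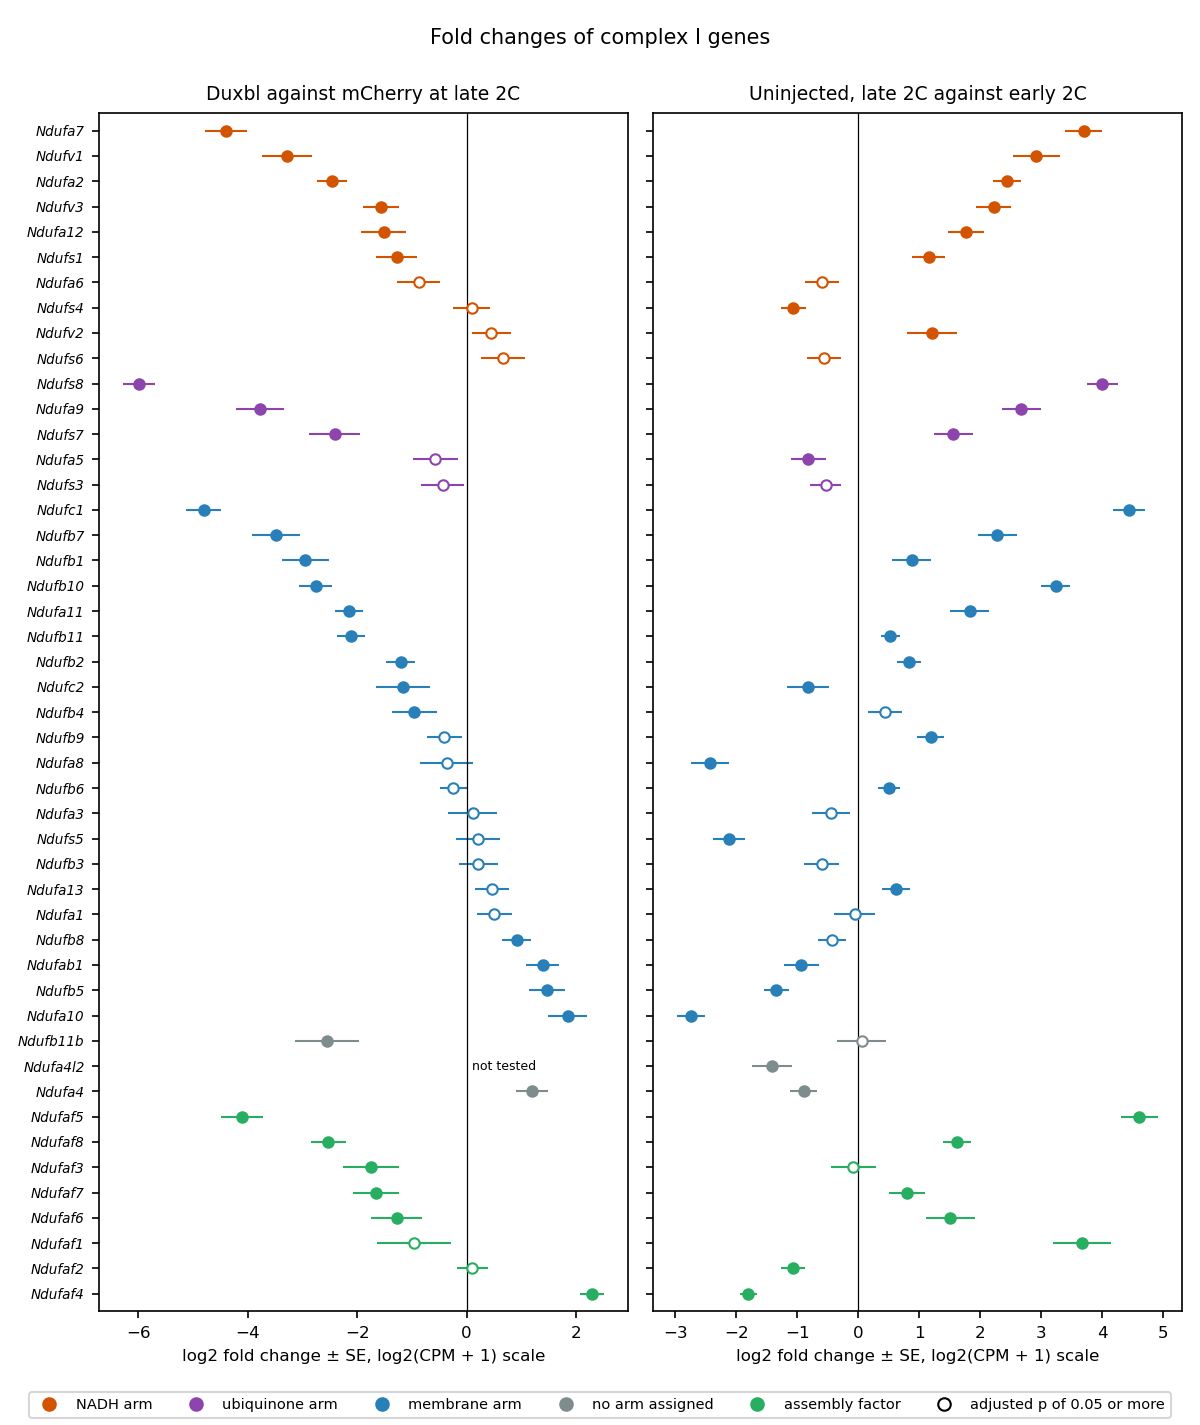
Log2 fold changes with standard errors of 47 complex I genes, Duxbl against mCherry at late 2C on the left and uninjected late 2C against early 2C on the right. Colours mark the arm or assembly factors and open symbols an adjusted p of 0.05 or more; most genes called higher in the right panel, such as Ndufs8, Ndufc1 and Ndufa7, were called lower in the left panel.

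Ubiquinone-arm subunits had the deepest deficits, with 4 of 6 lower, 0 higher and a median log2 fold of -3.09, where 29.1% of all genes were lower and 26.8% higher. Ndufs8 (ENSMUSG00000059734, mm39 chr19:3958863-3962774, minus strand) had 0.814, 3.915, 0.882, 2.67 and 2.07 CPM in the 5 Duxbl libraries at late 2C, against 140.2, 180.4 and 245 CPM in mCherry and 132.5, 228 and 266 CPM in uninjected libraries. Its log2 fold against mCherry was -5.99 ± 0.29 (95% interval -6.59 to -5.39, adjusted p 1.4e-12, limma). Every Duxbl library lay below every control library, and also below the Duxbl libraries of early 2C. Its promoter is the first sequence above.

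Ndufs7, a core subunit at the ubiquinone site, was also lower. Ndufs7 had 12.3, 5.92, 11.0, 8.34 and 0.921 CPM in Duxbl libraries, against 19.1, 35.7 and 67.3 CPM in mCherry and 14.45, 43.6 and 64.9 CPM in uninjected libraries (-2.41 ± 0.46, adjusted p 0.00014, limma). Its Duxbl values lay wholly below those of the other treatments. The supernumerary subunit Ndufa9 had 0.431, 0.954, 13.1, 1.87 and 4.28 CPM in Duxbl libraries, against 30.9, 48.3 and 90.7 CPM in mCherry and 34.6, 44.7 and 57.7 CPM in uninjected libraries, a log2 fold of -3.78 ± 0.44 (adjusted p 2.66e-07, limma). The fourth Duxbl replicate, at 13.1 CPM, was above the other 4 and below all controls.

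The core subunit Ndufs3 and the supernumerary Ndufa5 were not called in the same arm. Ndufa5 had 4.07, 3.11, 4.31, 5.81 and 10.45 CPM in Duxbl libraries, against 4.37, 8.33 and 15.2 CPM in mCherry and 2.67, 4.83 and 11.2 CPM in uninjected libraries (-0.57 ± 0.42, adjusted p 0.25, limma). Ndufs3 had 15.0, 13.95, 16.1, 16.2 and 18.0 CPM in Duxbl libraries, against 5.90, 27.2 and 35.8 CPM in mCherry and 8.46, 23.8 and 28.2 CPM in uninjected libraries. Its log2 fold was -0.44 ± 0.40 (95% interval -1.26 to 0.38, adjusted p 0.356, limma). The Duxbl values of Ndufs3 were close together and inside the range of both control groups.

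In the NADH arm 6 of 10 subunits were lower and 0 higher, with a median of -1.40. Ndufa7 (ENSMUSG00000041881, mm39 chr17:34043546-34057291, plus strand) had 4.55, 2.81, 1.275, 3.98 and 1.29 CPM in Duxbl libraries, against 37.0, 83.25 and 134 CPM in mCherry and 36.0, 59.1 and 93.0 CPM in uninjected libraries. Its log2 fold against mCherry was -4.39 ± 0.38 (95% interval -5.18 to -3.61, adjusted p 3.77e-09, limma), with no overlap between the groups. Ndufv1, the NADH-binding core subunit, had 11.8, 4.52, 0.392, 3.51 and 4.19 CPM in Duxbl libraries, against 23.75, 49.9 and 70.7 CPM in mCherry and 28.3, 65.4 and 90.2 CPM in uninjected libraries (-3.28 ± 0.45, adjusted p 2.48e-06, limma). Its Duxbl values spread widely and did not reach the lowest control.

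The other core subunits of this arm, Ndufs1 and Ndufv2, differed in their calls. Ndufs1, the largest subunit and the carrier of several iron-sulphur clusters, had 4.88, 2.71, 6.32, 12.5 and 16.7 CPM in Duxbl libraries, against 12.15, 18.5 and 32.0 CPM in mCherry and 18.2, 21.9 and 28.0 CPM in uninjected libraries, a log2 fold of -1.28 ± 0.38 (adjusted p 0.00651, limma). Its Duxbl range overlapped that of mCherry and lay below that of uninjected libraries. Ndufv2, which holds an iron-sulphur cluster beside the flavin, had 95.7, 70.8, 30.25, 75.2 and 63.0 CPM in Duxbl libraries, against 18.7, 50.5 and 83.9 CPM in mCherry and 34.7, 43.9 and 74.2 CPM in uninjected libraries, and was not called (0.45 ± 0.35, 95% interval -0.29 to 1.18, adjusted p 0.289, limma). Among the 7 core subunits 5 were lower and 0 higher, with a median of -2.41, where 29.1% of all genes were lower and 26.8% higher. The other lower subunits of the arm, Ndufa2, Ndufv3 and Ndufa12, had log2 folds of -2.46, -1.57 and -1.52. Ndufa6, Ndufs4 and Ndufs6 were not called, at -0.88, 0.09 and 0.67.

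Per kilobase of exon, the order of the core subunits in Duxbl embryos differed from that in controls at late 2C. Ndufv2 was the most abundant in Duxbl embryos at 31.2 CPM per kb and Ndufs8 the least at 1.60. Ndufs8 was the most abundant in mCherry embryos at 142 CPM per kb and in uninjected embryos at 164, with Ndufs1 the least at 6.75 and 7.70. Ndufv1 and Ndufs1 were next to each other in Duxbl embryos, at 2.75 and 2.89 CPM per kb. The differences between genes within a group were not tested.

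**Figure D2:**
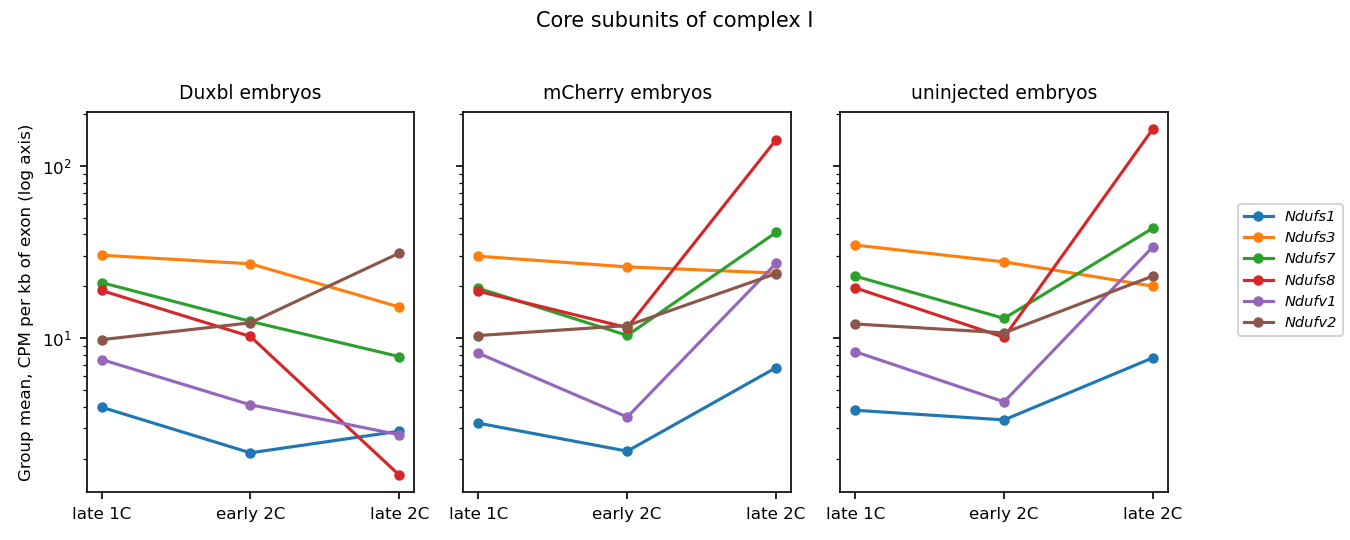
Mean level of 6 nuclear core subunits by stage in Duxbl, mCherry and uninjected embryos, in CPM per kb of exon on a log axis. Ndufs8 ends lowest in Duxbl embryos at 1.60 CPM per kb and highest in mCherry and uninjected embryos at 142.0 and 164 CPM per kb.

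The membrane arm moved in both directions in Duxbl embryos at late 2C, with 9 of 21 subunits lower, 4 higher and a median of -0.36. The share called was 61.9%, near the 55.9% of all genes (29.1% lower and 26.8% higher). Ndufc1 (ENSMUSG00000037152, mm39 chr3:51312098-51316409, minus strand) had 0.239, 1.71, 0.294, 1.92 and 0.783 CPM in Duxbl libraries, against 35.7, 47.7 and 70.95 CPM in mCherry and 38.7, 47.0 and 63.5 CPM in uninjected libraries. Its log2 fold against mCherry was -4.81 ± 0.31 (95% interval -5.46 to -4.16, adjusted p 6.12e-11, limma). Duxbl libraries stood below 2 CPM, and no library of any treatment exceeded 2.80 CPM at early 2C. Ndufb7, a subunit facing the intermembrane space, had 0.287, 2.91, 0.735, 2.06 and 4.51 CPM in Duxbl libraries, against 15.3, 33.2 and 56.55 CPM in mCherry and 21.5, 23.4 and 52.6 CPM in uninjected libraries (-3.49 ± 0.44, adjusted p 8.06e-07, limma). The groups did not overlap. The other 7 lower subunits of the arm, Ndufb1, Ndufb10, Ndufa11, Ndufb11, Ndufb2, Ndufc2 and Ndufb4, had log2 folds of -2.95 to -0.95, and Ndufc2 and Ndufb4 lost their calls in some alternatives.

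Ndufa10 (ENSMUSG00000026260, mm39 chr1:92366732-92401582, minus strand) was the subunit with the largest excess in Duxbl embryos. It had 99.0, 102, 89.1, 45.7 and 54.6 CPM in Duxbl libraries, against 12.8, 20.4 and 34.9 CPM in mCherry and 9.82, 16.6 and 40.1 CPM in uninjected libraries. Its log2 fold against mCherry was 1.85 ± 0.35 (95% interval 1.12 to 2.58, adjusted p 0.000126, limma). The Duxbl libraries averaged 78.1 ± 26.1 CPM at late 2C and 146 ± 30.1 CPM at early 2C (SD, n = 5 each), without overlap.

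Ndufb5 and Ndufab1 were the next subunits by excess. Ndufb5, a membrane-arm subunit, had 40.65, 46.9, 26.6, 66.3 and 66.5 CPM in Duxbl libraries, against 11.8, 16.4 and 21.4 CPM in mCherry and 9.045, 18.1 and 30.2 CPM in uninjected libraries (1.47 ± 0.32, adjusted p 0.00056, limma). Ndufab1, the mitochondrial acyl carrier protein, had 152, 104, 77.9, 90.9 and 189 CPM in Duxbl libraries, against 24.3, 45.8 and 66.3 CPM in mCherry and 28.4, 41.7 and 56.9 CPM in uninjected libraries (1.39 ± 0.30, adjusted p 0.000473, limma). Neither overlapped with mCherry libraries, and the lowest Duxbl library of Ndufb5 lay below the highest uninjected one. Reads of Ndufab1 may be shared with its pseudogene row Ndufab1-ps, which averaged 52.3 ± 6.8 CPM in Duxbl, 18.6 ± 5.94 CPM in mCherry and 20.04 ± 3.74 CPM in uninjected libraries.

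Ndufb8 and Ndufa4 completed the set of higher subunits. Ndufb8, of the membrane arm, had 86.3, 55.9, 98.1, 67.7 and 86.2 CPM in Duxbl libraries, against 33.8, 41.55 and 49.0 CPM in mCherry and 19.9, 28.9 and 60.5 CPM in uninjected libraries (0.91 ± 0.27, adjusted p 0.00676, limma). Ndufa4, named for complex I but since assigned to cytochrome c oxidase, had 150.1, 205, 262.5, 278 and 340.4 CPM in Duxbl libraries, against 74.8, 107 and 141 CPM in mCherry and 50.3, 82.8 and 141 CPM in uninjected libraries (1.199 ± 0.29, adjusted p 0.00125, limma). Neither overlapped with mCherry libraries, but the highest uninjected library of Ndufb8 lay above the lowest Duxbl library. With libraries scaled by their totals alone, Ndufb8 was no longer called (log2 fold 0.598, adjusted p 0.0949, limma).

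The 8 membrane-arm subunits that were not called, Ndufa1, Ndufa3, Ndufa8, Ndufa13, Ndufb3, Ndufb6, Ndufb9 and Ndufs5, had log2 folds of -0.41 to 0.51. Ndufa8 and Ndufs5, which fell in the normal course, overlapped between all treatments at late 2C. Ndufa8 had 2.15, 6.325, 7.40, 2.62 and 3.36 CPM in Duxbl libraries, against 1.92, 5.23 and 11.1 CPM in mCherry and 1.79, 3.78 and 14.85 CPM in uninjected libraries. Ndufs5 had 7.95, 8.33, 6.47, 5.57 and 10.5 CPM in Duxbl libraries, against 2.73, 7.46 and 14.2 CPM in mCherry and 3.52, 5.29 and 6.94 CPM in uninjected libraries. Their 95% intervals for Duxbl against mCherry were -1.36 to 0.64 and -0.615 to 1.03 on the log2 scale. Ndufb11b, a copy related to Ndufb11 with which it may share reads, had 0.431, 5.02, 0.539, 5.81 and 0.368 CPM in Duxbl libraries, against 2.72, 15.2 and 46.4 CPM in mCherry and 11.4, 33.75 and 39.7 CPM in uninjected libraries (-2.55 ± 0.58, adjusted p 0.000745, limma). Ndufa4l2, a relative of Ndufa4 induced by low oxygen in other cells, was below the filter at late 2C. It had 0.287, 1.56, 0, 0.890 and 1.93 CPM in Duxbl libraries, while 5 of 6 mCherry libraries were listed at 0 and uninjected libraries had no more than 0.42 CPM.

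**Figure D3:**
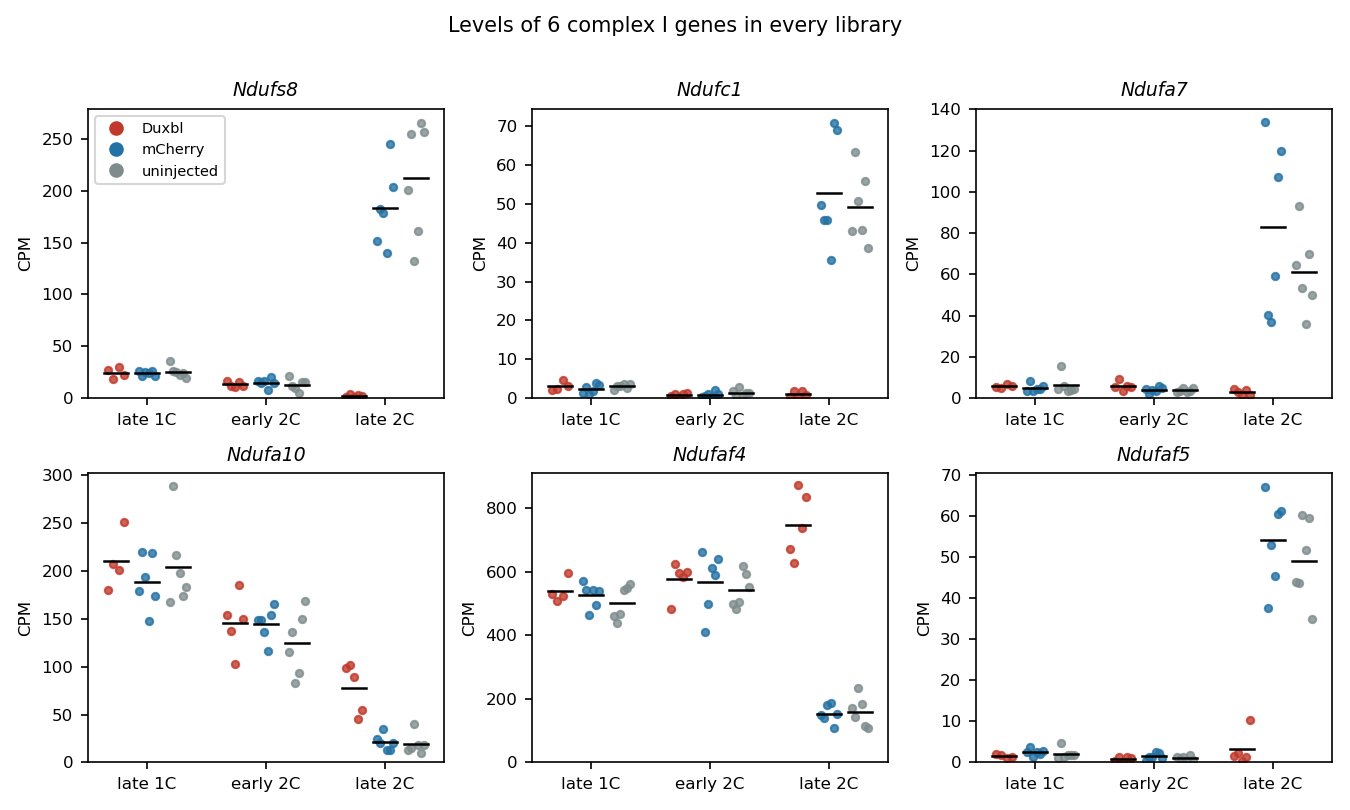
CPM of Ndufs8, Ndufc1, Ndufa7, Ndufa10, Ndufaf4 and Ndufaf5 in each of the 50 libraries by stage, with Duxbl in red, mCherry in blue and uninjected in grey, and bars at the group means. At late 2C the Duxbl libraries sit near 0 for Ndufs8, Ndufc1 and Ndufa7, and between 627.0 and 873 CPM for Ndufaf4, above all other libraries of that stage.

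Among the assembly factors, 5 of 8 were lower in late 2C embryos given Duxbl, 1 was higher and 2 were not called, with a median log2 fold of -1.47. Subunits had 20 of 39 tested lower and 5 higher, with a median of -0.95. Over all genes tested 29.1% were lower and 26.8% higher. The single factor called higher than in mCherry embryos was Ndufaf4, which in human cells binds Ndufaf3 and works on the ubiquinone arm. It had 671, 627, 873, 739 and 836 CPM in Duxbl libraries, against 109, 151 and 188 CPM in mCherry and 108, 158 and 235 CPM in uninjected libraries, a log2 fold of 2.295 ± 0.21 (95% interval 1.85 to 2.74, adjusted p 1.09e-08, limma). Every Duxbl library lay above every control library of the stage. Within Duxbl embryos it averaged 749 ± 105 CPM at late 2C and 578 ± 54.2 CPM at early 2C (SD, n = 5 each), which did not pass the test (log2 fold 0.37 ± 0.15, adjusted p 0.05, limma).

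Its partner Ndufaf3 was lower. Ndufaf3 had 6.61, 0.301, 0.441, 6.14 and 2.67 CPM in Duxbl libraries, against 4.20, 8.51 and 22.9 CPM in mCherry and 5.68, 15.0 and 28.4 CPM in uninjected libraries (-1.74 ± 0.52, adjusted p 0.00648, limma), and its Duxbl range overlapped both control ranges. Its row overlaps that of Impdh2.

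Ndufaf5, Ndufaf8 and Ndufaf7 were lower. Ndufaf5, which in human cells hydroxylates an arginine of Ndufs7, had 1.58, 2.21, 0.441, 1.265 and 10.3 CPM in Duxbl libraries, against 37.4, 56.7 and 67.0 CPM in mCherry and 35.0, 47.8 and 60.1 CPM in uninjected libraries (-4.11 ± 0.39, adjusted p 1.32e-08, limma). Ndufaf8, known in human cells as its partner, had 11.2, 19.5, 6.62, 7.03 and 11.6 CPM in Duxbl libraries, against 43.4, 59.3 and 103 CPM in mCherry and 39.7, 75.35 and 95.04 CPM in uninjected libraries (-2.53 ± 0.32, adjusted p 6.63e-07, limma). Neither group of Duxbl values reached the controls, although the seventh Duxbl replicate of Ndufaf5, at 10.3 CPM, stood above the other 4. Ndufaf7, an arginine methyltransferase of the mitochondrion in human cells, had 30.9, 34.3, 4.90, 26.8 and 35.9 CPM in Duxbl libraries, against 44.6, 75.2 and 111 CPM in mCherry and 35.5, 77.2 and 120.4 CPM in uninjected libraries (-1.65 ± 0.42, adjusted p 0.00215, limma). The lowest uninjected library of Ndufaf7 lay below the highest Duxbl library.

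The last 3 factors gave smaller or uncertain differences. Ndufaf6, known in human cells to act early in building the ubiquinone arm, had 4.60, 1.51, 0.441, 1.69 and 0.921 CPM in Duxbl libraries, against 1.32, 5.52 and 11.2 CPM in mCherry and 2.84, 5.29 and 10.2 CPM in uninjected libraries (-1.28 ± 0.46, adjusted p 0.0225, limma). Its call was lost when any of 4 libraries was left out, with adjusted p values of 0.0501 to 0.0622: the fourth or seventh Duxbl replicate, or the first or sixth mCherry replicate. Ndufaf1, part of the complex that builds the membrane arm, had 0.670, 6.12, 19.7, 10.1 and 7.37 CPM in Duxbl libraries, against 2.26, 17.1 and 42.5 CPM in mCherry and 6.78, 18.8 and 41.5 CPM in uninjected libraries, and was not called (-0.96 ± 0.68, 95% interval -2.36 to 0.45, adjusted p 0.236, limma). Ndufaf2, a relative of the subunit Ndufa12, had 46.4, 44.2, 28.8, 50.8 and 83.4 CPM in Duxbl libraries, against 30.6, 49.0 and 56.6 CPM in mCherry and 24.9, 33.3 and 42.7 CPM in uninjected libraries (0.11 ± 0.28, 95% interval -0.47 to 0.68, adjusted p 0.764, limma). Both overlapped with the controls in range.

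Summed over genes, subunits averaged less and assembly factors more in Duxbl embryos than in controls at late 2C, with no test of the sums. The 40 subunits together had 1231 ± 191 CPM in Duxbl (SD, n = 5), 1963 ± 393 CPM in mCherry and 1842 ± 224 CPM in uninjected libraries (SD, n = 6 each). These sums include Ndufa4 and the other genes put in no arm. Together those gave 250.5 ± 72.9 CPM in Duxbl, 125.7 ± 23.5 CPM in mCherry and 115.5 ± 36.8 CPM in uninjected libraries. The 8 assembly factors had 854.5 ± 106 CPM in Duxbl, 434 ± 61.4 CPM in mCherry and 437.5 ± 62.05 CPM in uninjected libraries, and Ndufaf4 alone gave 749 CPM of the Duxbl sum. The ubiquinone arm summed to 39.2 ± 5.1 CPM in Duxbl libraries, against 387 ± 105.5 CPM in mCherry and 420.0 ± 114 CPM in uninjected libraries. The membrane arm summed to 753 ± 135 CPM, against 958 ± 164 CPM in mCherry and 830.4 ± 144 CPM in uninjected libraries, and the groups overlapped. Long and abundant transcripts weigh most in these sums.

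Within Duxbl embryos, 8 complex I genes rose and 23 fell at late 2C relative to early 2C. Of all genes 39.2% were called (20.4% higher and 18.8% lower). With only the compared groups in the fit the counts were 6 and 14, where 3571 of 19568 genes rose and 4093 fell. Of the 26 genes that rose in uninjected embryos, 7 also rose in Duxbl embryos, 10 fell and 9 were not called. The matching count over all genes was not made. Only 17 of the 31 calls of the Duxbl course stayed in all 17 alternatives. Among the genes that rose in the normal course and fell under Duxbl, Ndufs8, Ndufb1, Ndufb11 and Ndufaf8 kept their Duxbl call in all of them, and Ndufs7, Ndufa7, Ndufa9, Ndufb7 and Ndufb2 lost it in some. Ndufs8 stood at 2.07 ± 1.30 CPM at late 2C and 13.2 ± 2.77 CPM at early 2C in Duxbl embryos (SD, n = 5 each), a log2 fold of -2.29 ± 0.27 (adjusted p 1.55e-09, limma). Ndufa13, Ndufb9, Ndufb10, Ndufv2, Ndufv3, Ndufaf1 and Ndufaf5 rose in both, but Ndufb10, Ndufv2, Ndufv3 and Ndufaf5 lost the Duxbl call in some alternatives. Ndufaf1 rose by 1.93 in Duxbl embryos and by 3.66 in uninjected embryos.

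Of the 12 genes that fell in uninjected embryos, 8 fell in Duxbl embryos too and 4 were not called there. Those 4 were Ndufa4, Ndufab1, Ndufaf4 and Ndufb5, with log2 folds in Duxbl embryos of 0.50, 0.15, 0.37 and 0.04. Ndufa8 fell by 2.60 on the log2 scale in Duxbl embryos and by 2.43 in uninjected embryos.

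The Duxbl effect at late 2C differed from that at early 2C for 29 of the 48 genes (limma, test of the difference of the 2 effects). At late 2C the effect was more negative for 23 and more positive for 6. Of all genes 44.9% were called, 23.1% more negative and 21.9% more positive. The 6 positive ones were Ndufa10, Ndufb5, Ndufab1, Ndufa4, Ndufb8 and Ndufaf4.

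The fold changes of the normal course and of the Duxbl difference share no library, although the scaling factors come from all 50 libraries and the uninjected late 2C libraries enter the variance of both. Of the 26 genes that rose in uninjected embryos, 21 were lower in Duxbl than in mCherry embryos at late 2C, 5 were not called and 0 were higher. Of the 12 that fell, 5 were higher (Ndufa10, Ndufa4, Ndufab1, Ndufb5 and Ndufaf4), 1 was lower (Ndufc2), 5 were not called and Ndufa4l2 was not tested. Across 47 genes, Pearson's r between the 2 log2 folds was -0.816 and Spearman's rho -0.804, and over the 39 subunits r was -0.835. Over all 23052 genes tested in both it was -0.735, so the opposite direction of the 2 folds was not particular to complex I genes. The counts of risers and fallers by Duxbl call were not made over all genes. Genes in a library share its depth and scaling and are not independent replicates, so these are descriptions. For example, Ndufs8 had log2 folds of -5.99 for the Duxbl difference and 4.0 for the normal course, and Ndufa10 1.85 and -2.74. Ndufaf1 had -0.96 and 3.66.

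**Figure D4:**
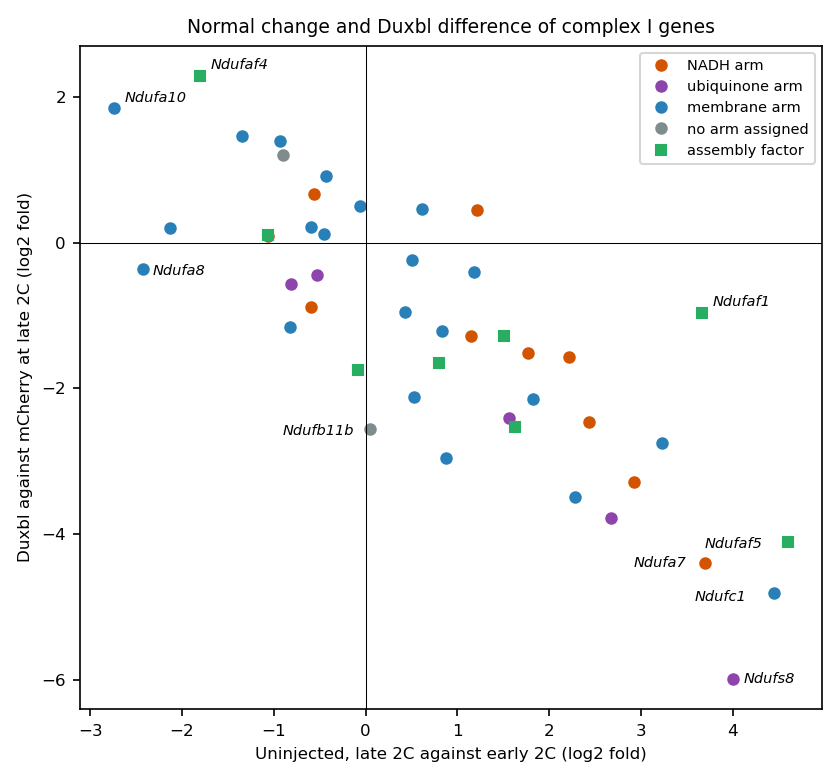
Log2 fold of Duxbl against mCherry at late 2C (vertical) over log2 fold of uninjected late 2C against early 2C (horizontal) for 46 complex I genes, with squares for assembly factors and colours for arms. The points run from upper left to lower right, with Ndufaf4 and Ndufa10 at one end and Ndufs8 at the other.

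Markers of embryo state moved with these differences at late 2C. The summed level of 10 oocyte and zygote markers was 4120 to 5352 CPM in Duxbl libraries, against 1077 to 1793 CPM in mCherry and 916.5 to 1941 CPM in uninjected libraries. The sum of 10 markers of the 2-cell embryo was 61.9 to 297 CPM in Duxbl libraries, against 1563 to 4473 CPM in mCherry and 1241 to 3739 CPM in uninjected libraries. For other possible sources, 11 cumulus and granulosa genes summed to 25.7 to 60.5 CPM in Duxbl, 46.3 to 129.7 CPM in mCherry and 34.1 to 106.9 CPM in uninjected libraries. Inha and Inhba were at 0 in every Duxbl library, Inha also in every mCherry library and Inhba also in every uninjected library. For 6 blood genes the sums were 3.045 to 13.3 CPM in Duxbl, 41.1 to 63.6 CPM in mCherry and 30.5 to 67.2 CPM in uninjected libraries. For 8 sperm genes they were 3.5 to 32.0 CPM in Duxbl, 3.13 to 9.42 CPM in mCherry and 1.9 to 6.44 CPM in uninjected libraries. Prm3 was at 0 in every Duxbl library, and Gapdhs in every mCherry and uninjected library. For 8 oviduct genes they were 80.1 to 189 CPM in Duxbl, 58.8 to 168.0 CPM in mCherry and 51.5 to 157 CPM in uninjected libraries. In uninjected embryos at early 2C, the blood sums were 1.98 to 9.81 CPM and the oviduct sums 8.58 to 13.0 CPM. The cumulus and granulosa sums were then 79.0 to 106.8 CPM and the sperm sums 14.3 to 21.2 CPM. The part of these markers in the complex I differences was not tested. The Duxbl libraries of late 2C were also less alike, with a median r of 0.864 to 0.912 to the rest of their group over all genes, against 0.938 to 0.956 in mCherry and 0.916 to 0.959 in uninjected libraries.

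Other genes that build complex I were called in both directions in Duxbl embryos at late 2C. Of 13 assembly genes not named Nduf, 12 were tested, 6 were lower and 1 higher, with a median of -0.87, so that 58.3% were called, close to the 55.9% of all genes. Lyrm2 averaged 3.87 ± 2.92 CPM in Duxbl and 28.4 ± 8.36 CPM in mCherry libraries (log2 fold -2.76, adjusted p 5.23e-06). Tmem186 averaged 3.615 ± 4.70 CPM in Duxbl and 22.8 ± 8.385 CPM in mCherry libraries (log2 fold -2.81, adjusted p 6.45e-05). Nubpl, which delivers iron-sulphur clusters to complex I, was the only gene of this list called higher and averaged 11.8 ± 4.16 CPM in Duxbl and 4.56 ± 1.78 CPM in mCherry libraries (log2 fold 1.21, adjusted p 0.00962). Tmem126a averaged 11.65 ± 7.085 CPM in Duxbl and 26.2 ± 10.4 CPM in mCherry libraries (log2 fold -1.22, adjusted p 0.0177). All are limma values with SD over 5 Duxbl and 6 mCherry libraries.

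The remaining respiratory complexes were read the same way at late 2C, against the same background of 29.1% of all genes lower and 26.8% higher. Complex II, which feeds electrons from succinate, had 1 of 4 subunits lower and 0 higher. Complex III, which passes electrons from ubiquinone to cytochrome c, had 7 of 9 lower and 0 higher (median -2.91), among them Cyc1 at 1.28 ± 2.12 CPM in Duxbl and 63.85 ± 23.3 CPM in mCherry libraries (log2 fold -5.10, adjusted p 2.97e-09). Complex IV, which reduces oxygen, had 4 of 11 lower and 2 higher (median -0.36), 54.5% called and near the 55.9% of all genes. Cox7c was lower at 2.82 ± 1.30 CPM in Duxbl and 53.0 ± 20.04 CPM in mCherry libraries (log2 fold -3.80, adjusted p 6.75e-09). Cox8a was higher and averaged 931 ± 153 CPM in Duxbl and 329.8 ± 51.7 CPM in mCherry libraries (log2 fold 1.49, adjusted p 1.1e-06). Complex V, the ATP synthase, had 11 of 15 tested lower and 0 higher (median -1.61), among them Atp5g1 at 41.0 ± 4.17 CPM in Duxbl and 452 ± 89.1 CPM in mCherry libraries (log2 fold -3.42, adjusted p 7.87e-12). All adjusted p values here are from limma.

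Genes for factors known to regulate respiratory chain genes were lower in 9 of 13 cases and higher in 0, against 29.1% and 26.8% of all genes, with a median of -0.83. Gabpa, the DNA-binding part of an ETS factor, averaged 32.2 ± 28.4 CPM in Duxbl and 254 ± 95.3 CPM in mCherry libraries (log2 fold -3.28, adjusted p 4.14e-06). Gabpb1, its partner, averaged 36.0 ± 19.4 CPM in Duxbl and 166 ± 65.35 CPM in mCherry libraries (log2 fold -2.23, adjusted p 1.83e-05). Yy1, whose motif stands in the Ndufc1 promoter above, averaged 33.6 ± 12.7 CPM in Duxbl and 149 ± 43.9 CPM in mCherry libraries (log2 fold -2.14, adjusted p 1.49e-06). Pprc1, a coactivator of these factors, averaged 9.855 ± 3.601 CPM in Duxbl and 136 ± 69.9 CPM in mCherry libraries (log2 fold -3.55, adjusted p 5.4e-08). No test linked the level of a factor to that of a complex I gene.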

How the data were processed

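Libraries were made with SMART-Seq v4 and Nextera XT from 5 pooled embryos per tube and sequenced as read pairs, per the labels' protocols. The submitters' processing notes name Trimmomatic 0.39, STAR 2.7.10a, Picard 3.0.0, featureCounts 2.0.4, DESeq2 1.36.0 and DESeq, with the mm39 build. The deposited table holds whole numbers, but 19 of the 50 libraries lack some whole numbers from 1 to 20, as values multiplied by 1.06 to 1.98 and rounded would. They were therefore treated as a score scaled by the authors and not as read counts, and no count model was used. Totals of 12.04 to 26.96 M per library limit the precision of low genes; the depth in reads is approximate (13.1 to 24.4 M in those 19 libraries).

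Values were divided by library totals times trimmed-mean factors (trims of 30% and 5%) computed here over all 50 libraries, which gives the CPM used here. Genes with a value of 10 or more in a number of libraries equal to the size of a fit's smallest group were tested with limma 3.58.1 in R 4.3.3 on log2(CPM + 1), with trend and robust variance, two-sided, and Benjamini-Hochberg adjustment over all genes tested at 0.05. A log2 fold on this scale understates the change of low genes. Comparisons between treatments used the 3 groups of a stage, and comparisons between stages all 9 groups. The procedure was tested on simulated data. Exon lengths for levels per kb came from GENCODE vM21 for 47 of the 48 genes.

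The complex I genes and all lists were chosen with earlier results of these data known. Genes given in full are the 3 marker genes, the core subunits, the Ndufaf genes and the 6 called subunits with the largest rise and fall in the Duxbl difference and the normal course; other lists give called genes with the smallest adjusted p. One of the genes so chosen is not reported here; counts, medians and sums include it. Cyc1, Cox7c and Atp5g1 are examples from those. Only for Duxbl and mCherry at late 1C did every same-numbered pair of libraries correlate above 0.1 (r of 0.198 to 0.34 over 4 pairs). There the fit with a replicate block also called 0 complex I genes. In other comparisons same-numbered libraries also deviated together in the median, as given below. The main fits did not use the replicate numbers. Other size factors, a pseudocount of 0.1, no filter, voom weights, other fits and leaving out each library were tried.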

Additional observations from a re-analysis of the deposited data

Results flagged for a closer look

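The Duxbl effect differed between late 2C and early 2C for 29 complex I genes (limma, test of the difference of the effects). Of all genes 44.9% were called, 23.1% more negative and 21.9% more positive. Among the subunits, the difference of the log2 folds was -5.86 for Ndufs8, -4.82 for Ndufa7, -4.81 for Ndufc1, -4.02 for Ndufa9, -3.65 for Ndufv1, -3.14 for Ndufb7, -2.69 for Ndufs7 and -1.20 for Ndufs1. It was 1.86 for Ndufa10, 1.45 for Ndufb5, 1.37 for Ndufab1, 1.30 for Ndufa4 and 1.03 for Ndufb8. Among the assembly factors it was -3.72 for Ndufaf5, -2.67 for Ndufaf8, -1.52 for Ndufaf7, -1.41 for Ndufaf3 and 2.26 for Ndufaf4.

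In 22 of 252 groups of libraries over 28 named genes, 1 library stood apart from the rest of its group, where chance flags about 1 in 20. The third replicate of uninjected late 1C accounted for 7 of them: Ndufab1 at 132.7 CPM, Ndufa8 at 85.07 CPM, Ndufs5 at 59.23 CPM, Ndufs3 at 53.45 CPM, Ndufa7 at 15.66 CPM, Ndufa9 at 12.47 CPM and Ndufaf5 at 4.832 CPM. In the same group Ndufb5 stood apart at 34.01 CPM in the first replicate. At late 1C, Ndufaf7 stood apart at 31.73 CPM in the fifth Duxbl replicate, Ndufaf1 at 2.099 CPM in the fifth mCherry replicate and Ndufaf2 at 68.18 CPM in the fourth mCherry replicate.

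At early 2C, Ndufaf4 stood apart at 484.2 CPM in the third Duxbl replicate. In uninjected embryos of that stage, Ndufa9 stood apart at 10.99 CPM in the fifth replicate, Ndufa8 at 37.53 CPM in the third and Ndufs5 at 35.59 CPM in the seventh. At late 2C, Ndufaf5 stood apart at 10.31 CPM in the seventh Duxbl replicate. In mCherry embryos these were Ndufa9 at 90.72 CPM and Ndufa4l2 at 0.04828 CPM in the seventh replicate and Ndufs4 at 27.03 CPM in the first. In uninjected embryos they were Ndufa10 at 40.06 CPM in the fourth replicate, Ndufb7 at 52.63 CPM in the third and Ndufa4l2 at 0.4203 CPM in the fifth.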

How the results depend on the processing

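For Duxbl against mCherry at late 2C, 27 of the 31 called complex I genes stayed called in all 20 alternatives, and Ndufaf6, Ndufb4, Ndufb8 and Ndufc2 did not. Leaving out single libraries gave 28 to 31 calls. No called gene changed sign in any alternative run. The median log2 fold of all genes at late 2C moved to -0.264 with totals alone, -0.262 with voom weights, -0.191 with a pseudocount of 0.1 and -0.148 with size factors within the stage, which was chosen after seeing the data. In the normal course 28 of 38 calls stayed in all 19 alternatives, and single libraries left out gave 36 to 40; in mCherry embryos they gave 36 to 38, and for the difference of effects 27 to 32. The Duxbl course gave 31 calls, 20 with the compared groups alone, and 23 to 28 without single libraries. Uninjected early 2C against late 1C gave 1 call, 2 with voom weights, 3 with a replicate block, 7 with the compared groups alone, and 0 to 2 without single libraries. The compared groups alone also gave more calls over all genes, 519 higher and 1081 lower of 18323. The main fit gave 323 higher and 521 lower of 28808. The remaining comparisons gave 0 throughout. The cause of these shifts was not tested.

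With the replicate block, the counts were 0 at early 2C and 31 at late 2C for Duxbl against mCherry. Over all genes, 5 were then higher and 89 lower of 21180 at early 2C, and 6269 and 6878 of 23052 at late 2C. The block gave 42 for the uninjected course, 34 for the Duxbl course, 39 for the mCherry course and 32 for the difference of effects. Of all 28808 genes, 8876 were higher and 7837 lower in the uninjected course, and 6123 and 5683 in the Duxbl course. The mCherry course had 8941 and 7864, and the difference of effects 6548 and 6789. Outside Duxbl and mCherry at late 1C, not every same-numbered pair passed 0.1, and the main fits paired no samples. Between Duxbl and mCherry the median r was 0.257 for the same number and -0.138 for other numbers at late 1C. It was 0.265 and -0.0508 at early 2C, and 0.0433 and -0.00854 at late 2C. Between Duxbl and mCherry, same-numbered deviations correlated at 0.07 to 0.331 at early 2C, where 4 of 5 samples correlated best with their own number, and at -0.00652 to 0.093 at late 2C, with 3 of 5. Between mCherry and uninjected the same-number median was 0.198, 0.211 and 0.21 at the 3 stages, against -0.0825, -0.0548 and -0.0592 for other numbers. Genes below a few CPM are limited by depth.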

Other observations

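Pseudogene rows of complex I genes were read at late 2C beside their parent genes. Ndufa12-ps averaged 7.37 ± 2.87 CPM in Duxbl embryos, against 23.4 ± 11.8 CPM in mCherry and 24.1 ± 10.7 CPM in uninjected embryos. Ndufs6b averaged 2.05 ± 1.02 CPM in Duxbl, 3.55 ± 1.65 CPM in mCherry and 2.43 ± 1.2 CPM in uninjected embryos (SD, n = 5 Duxbl, 6 mCherry and 6 uninjected). Reads shared between these rows and their parents cannot be told apart in the deposited values.

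The other respiratory complexes also changed in the normal course of uninjected embryos at late 2C against early 2C. Of the tested subunits, 6 rose and 1 fell in complex III (median log2 fold 2.46), 4 rose and 3 fell in complex IV (0.377), 9 rose and 2 fell in complex V (1.07), and 0 rose and 2 fell in complex II (-1.15). Among the regulators 7 rose and 3 fell (0.878), and among the assembly genes not named Nduf 8 rose and 4 fell (1.08). These are limma calls at an adjusted p under 0.05, read against 30.3% of all genes higher and 26.6% lower.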
